A study of Mus musculus with 25 samples.

Results

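Colon tissue of mice labelled Card9-/- was compared between day 12 of a dextran sulphate sodium (DSS) course and day 0, before any DSS. The comparison took the arrays whose titles give the knockout genotype and day 12 (5 arrays) or day 0 (3 arrays), which are 8 of the 25 arrays of the series. Both groups were female Card9-/- mice on the C57BL/6j background, aged 8 weeks. The day 12 mice drank 2% (w/v) DSS for 7 days and then plain water for 5 days, and the day 0 mice received no DSS. The other 17 arrays were colon of wild-type mice at days 0, 7 and 12 and of Card9-/- mice at day 7. Sample descriptions name a mouse for each array but do not say that replicates were separate animals, so p-values measure the spread between arrays. That spread, and each standard error, was taken from the 6 groups of all 25 arrays. Total RNA with an integrity number above 7 was labelled with Cy3 from 100 ng and hybridised to one-colour Agilent mouse arrays. Between 25893 and 30513 probes were well above background on the 8 arrays. Levels below are log2 signals minus the 75th percentile of the same array, and a log2 difference is the day 12 mean minus the day 0 mean with its standard error. Unless wild type is named, day 0, day 7 and day 12 mean the arrays labelled Card9-/-.

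DSS in drinking water damages the lining of the colon, lets gut bacteria reach the tissue below and draws in neutrophils and monocytes; when DSS is withdrawn, the epithelium closes over and the infiltrate recedes over days to weeks. CARD9 is an adaptor protein of myeloid cells that links C-type lectin receptors, which bind fungal cell walls, through the kinase Syk to NF-kappaB and cytokine genes. The study's title ties CARD9 in colitis to bacterial tryptophan products that act on the aryl hydrocarbon receptor (AhR), which in the gut is known to sustain IL-22, a cytokine of epithelial repair. The comparison addresses which transcripts were still away from their starting level 5 days after DSS had been removed.

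The Card9 probe did not fall in the arrays labelled Card9-/-. Its log2 levels were -1.50, -1.36 and -0.72 at day 0 and -0.82, -0.72, -1.35, -0.79 and -0.99 at day 12, while the wild-type arrays read -6.59, -5.83 and -5.73 at day 0 and -6.39, -5.99, -6.55, -6.84 and -2.91 at day 12. The probe, at chr2:26208462-26208521 (mm9), was therefore brighter in each of these arrays labelled knockout than in the wild-type ones, and the labels do not say whether it lies within the deleted part of the gene. Genotypes below are those of the labels. Whether the labels of the genotypes were exchanged cannot be settled from these files. An exchange would turn the sign of each difference between genotypes given below. The comparison of day 12 with day 0 reported here would then describe wild-type mice. Between day 12 and day 0 the Card9 log2 difference was 0.26 ± 0.60 (limma, adjusted p = 0.929). The tissue label held on the goblet cell mucin gene Muc2, whose log2 levels were 8.79, 8.75 and 8.19 at day 0 and 7.68, 7.67, 8.16, 8.25 and 7.86 at day 12, well above background on each array.

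The 3 day 0 arrays were not alike in the genes that mark position along the colon. Hoxb8, a homeobox gene of the proximal colon, had log2 levels of 1.79, 1.28 and -3.88 at day 0 and -5.21, -4.55, -3.82, -4.10 and -3.14 at day 12. Hoxb6, another proximal gene, had log2 levels of 2.58, 2.00 and -1.79 at day 0 and -2.51, -2.61, -2.34, -1.85 and -1.98 at day 12. Replicates 1 and 2 of day 0 lay far above the day 12 arrays in both genes, and replicate 3 lay near or inside the day 12 range. Hoxb13, which marks the distal colon and rectum, showed the reverse, with log2 levels of 1.53, 3.24 and 6.95 at day 0 and 7.28, 7.53, 6.35, 5.81 and 6.73 at day 12. Hoxd13, a second distal gene, had log2 levels of -7.36, -7.03 and -3.58 at day 0 and -3.21, -0.03, -3.98, -4.34 and -3.70 at day 12. The distal list did not move as one: of 8 measured genes 4 were higher and 4 lower at day 12, and Hoxa11, well above background on the 8 arrays, had log2 levels of 0.71, 0.75 and -0.98 at day 0 and -1.17, -1.09, -0.84, 0.11 and -0.42 at day 12. The mean over the 8 measured proximal colon Hox genes, relative to the wild-type day 0 mean, was 1.61, 1.46 and 0.12 at day 0 and -0.32, -0.03, -0.09, -0.14 and -0.14 at day 12. Of these 8 genes, 7 were lower and 1 higher at day 12, with a median log2 difference of -0.54. Between the days limma called 0 of them (2 lower at an unadjusted p under 0.05). For 2 of them no array of either day was well above background. Replicates 1 and 2 of day 0 thus carried a higher proximal Hox mean, and lower Hoxb13 and Hoxd13, than the other 6 arrays. The part of position in the results was not tested on new samples. Results below are therefore given as measured and with the proximal Hox mean of each array as a covariate, and the main ones also against day 0 replicate 3 alone. Of the Hox genes averaged, Hoxb8 and Hoxb6 had the largest log2 differences, -3.89 and -3.19, against -0.89 to 0.15 in the others. Wild-type day 7 replicate 1, also in the fit, had the highest Hox mean, 1.74. Its mean over the neutrophil genes below was 1.64, against 2.43 to 4.63 in the other wild-type day 7 arrays. Among day 7 arrays labelled Card9-/-, replicate 4 was highest in both means, at 0.57 and 5.08. The part of inflammation in the covariate was not tested.

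**Figure D1:**
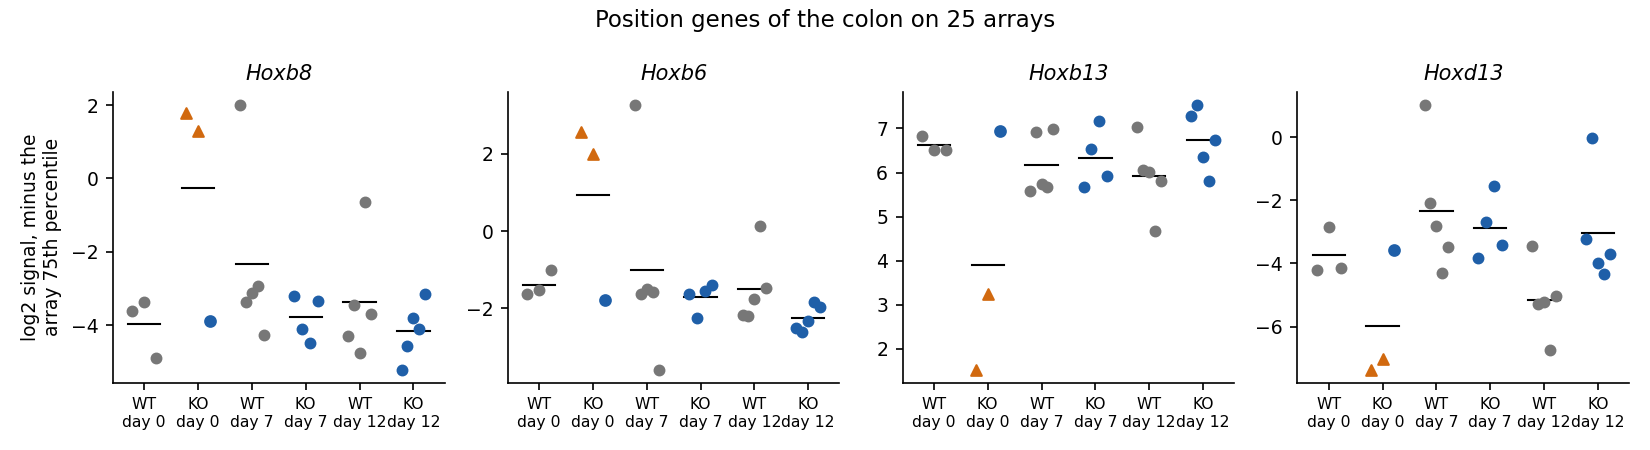
Log2 signal minus the array's 75th percentile (y axes) of 2 proximal (Hoxb8, Hoxb6) and 2 distal (Hoxb13, Hoxd13) colon genes on all 25 arrays, by genotype label (WT wild type, KO labelled Card9-/-) and day; black lines are group means and orange triangles are replicates 1 and 2 of KO day 0. Those 2 arrays sit above the other KO arrays in Hoxb8 and Hoxb6 and below them in Hoxb13 and Hoxd13.

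Markers of other tissues also varied between the arrays. The mean over 17 pancreatic acinar genes was 12.66 in day 12 replicate 1 and 2.15 in day 12 replicate 2, on the log2 scale relative to wild-type day 0, against -0.54 to 0.11 in the other 3 day 12 arrays. Smooth muscle genes had means of 0.73, 0.49 and -0.12 at day 0 and -0.72, -0.39, -0.85, -0.09 and -0.41 at day 12, and adipocyte genes of 1.20, 0.57 and -0.71 at day 0 and -1.95, -0.98, -0.67, -0.85 and 0.12 at day 12. Day 0 replicates 1 and 2 were the highest of the 8 arrays in both. The shares of muscle and fat in each sample were not tested for their part in the results.

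Of 25450 genes tested, 939 were higher at day 12 (3.69%) and 833 were lower (3.27%) at an adjusted p under 0.05 in limma. Counts of called genes in the lists below stand beside these shares. The rises were larger than the falls: 690 of the called rises exceeded 2-fold against 366 of the falls, and the median called log2 difference was 1.60 for rises and -0.89 for falls. In 1750 genes (6.88%) all day 12 arrays lay above all day 0 arrays, and in 2477 genes (9.73%) below. With the proximal Hox covariate, 131 genes were called up (0.515%) and 58 down (0.228%). Of these, 127 rises and 53 falls were also called as measured. Over all genes called as measured, the median log2 difference with the covariate was 1.26 for rises and -0.65 for falls. Without day 0 replicates 1 and 2, with the single remaining day 0 array taken to vary like the other groups, 50 genes were called up (0.197%) and 54 down (0.212%). Without day 0 replicate 1 alone, 311 genes were called up and 213 down, and without replicate 2 alone, 298 and 178. Leaving out day 12 replicate 3 gave 501 falls, and leaving out day 12 replicate 5 gave 496. With slide as a block, 645 genes were called up and 479 down. Some log2 differences below rest on arrays at background: of the 3 day 0 arrays, 1 was well above background in Il11, Ms4a1, Ccr6 and Gata3 and 2 in Il1rl1, Mcpt2 and Il13ra2. Of the 5 day 12 arrays, 1 was in Fabp1 and Gfi1b, 3 in Ugt2b5 and Ugt2b36 and 4 in Slc13a1.

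**Figure D2:**
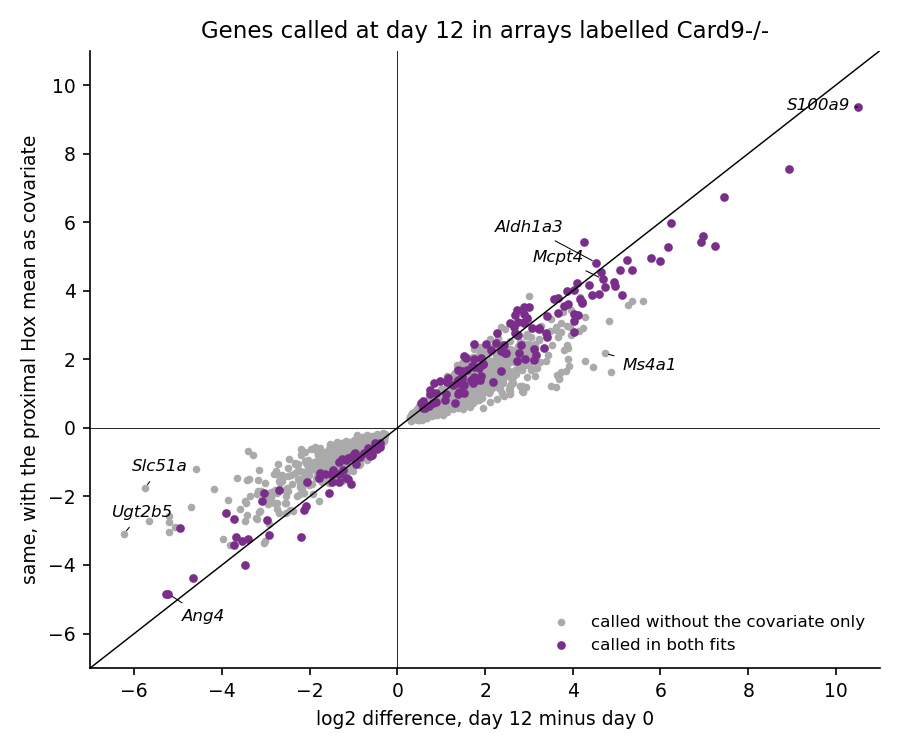
Log2 difference between day 12 and day 0 for the 1772 called genes as measured (x axis) and with the proximal Hox mean as covariate (y axis); the diagonal marks equal values, purple points are called in both fits and grey points only without the covariate. S100a9, Mcpt4, Aldh1a3 and Ang4 lie near the diagonal, while Ugt2b5, Slc51a and Ms4a1 lie nearer to 0 with the covariate.

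Neutrophil transcripts were still high at day 12, and the 2 largest called rises were S100a9 and S100a8. Of 18 measured neutrophil genes, 11 were called up, against 3.69% of all genes (7 after normexp background correction), and 6 were called up with the covariate and 5 against day 0 replicate 3 alone. The median log2 difference of the list was 2.86, or 1.99 when a gene at background throughout one day is entered at its bound, against -0.03 over all genes. Array means of the list, relative to wild-type day 0, were -0.62, -0.52 and 0.35 at day 0 and 2.89, 2.58, 3.90, 2.87 and 3.15 at day 12, so the groups did not overlap. In bulk tissue, more cells of a type and more RNA per cell cannot be told apart. In this list and in the cytokine, macrophage, complement, matrix protease, endothelial, EGF ligand, CARD9 pathway, MHC class II and B cell lists below, limma called 0 members down, and 0 had an unadjusted p under 0.05 in that direction.

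S100a9 and S100a8 encode the 2 subunits of calprotectin, the zinc- and calcium-binding protein that fills neutrophil cytoplasm. S100a9 (probe at chr3:90496573-90496632, mm9) had log2 levels of -6.01, -7.07 and -6.42 at day 0 and 3.84, 3.35, 5.27, 3.57 and 3.92 at day 12. None of the day 0 arrays was well above background and each of the day 12 arrays was. The rise was therefore at least 395-fold, where the bound sets the day 12 mean against the lowest signal that counts as well above background on the day 0 arrays, and the log2 difference was 10.49 ± 0.80 (adjusted p = 2.52e-07). It was 9.36 with the covariate (adjusted p = 2.53e-05) and 10.41 against replicate 3 alone (adjusted p = 0.000353). S100a8 had log2 levels of -7.20, -6.88 and -6.17 at day 0 and 1.95, 1.58, 3.46, 1.78 and 2.10 at day 12. Its rise was at least 112-fold (adjusted p = 4.28e-06), and day 12 replicate 3 was the highest array for both subunits.

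Further neutrophil genes rose too. Retnlg, a resistin-like gene of granulocytes, had log2 levels of -5.12, -6.74 and -6.05 at day 0 and -0.99, -1.63, 0.27, -0.67 and -0.69 at day 12. It rose at least 14.9-fold (adjusted p = 3.64e-05, and 0.00242 with the covariate). Clec4d, the C-type lectin MCL that signals through CARD9, had log2 levels of -7.25, -6.91 and -6.23 at day 0 and -1.36, -1.27, 0.13, -1.14 and -0.44 at day 12. Its rise was at least 14.1-fold (adjusted p = 4.74e-05, and 0.00340 with the covariate). Neither gene was well above background on a day 0 array, and in both the lowest day 12 array lay over 3 log2 units above the highest day 0 array. Ltf, lactoferrin, an iron-binding granule protein, was also not well above background at day 0 and rose at least 5.21-fold (adjusted p = 0.000545, and 0.0213 with the covariate). Lcn2, the siderophore-binding lipocalin made by neutrophils and epithelium, had a log2 difference of 2.58 ± 0.58 (adjusted p = 0.00986) that was not called with the covariate (1.97, adjusted p = 0.202).

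**Figure D3:**
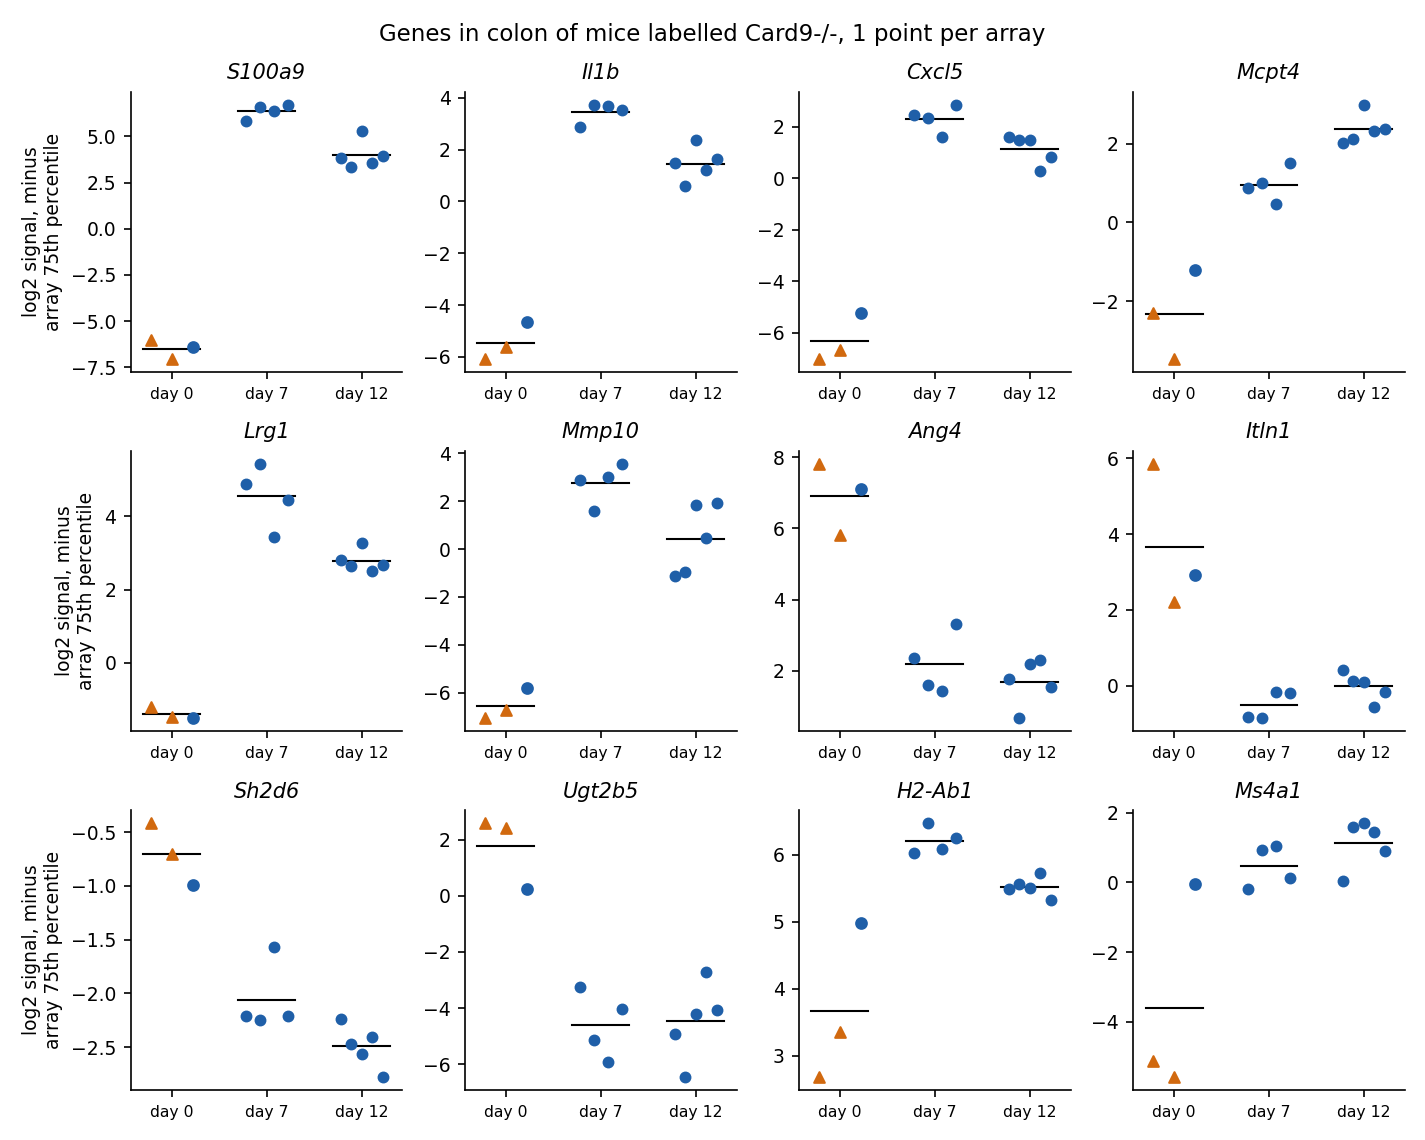
Log2 signal minus the array's 75th percentile (y axes, a separate range per gene) of 12 genes on the arrays labelled Card9-/- at days 0, 7 and 12, 1 point per array with group means as black lines; orange triangles are day 0 replicates 1 and 2. In S100a9, Il1b, Cxcl5, Mcpt4, Lrg1, Mmp10, Ang4, Itln1 and Sh2d6 the 3 day 0 arrays lie on one side of the day 12 arrays without overlap, whereas in H2-Ab1 and Ms4a1 day 0 replicate 3 lies near the day 12 arrays and away from replicates 1 and 2, and in Ugt2b5 it lies between.

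Inflammatory cytokine and chemokine genes were also high. Of 22 measured, 14 were called up (7 after normexp background correction), 5 were called up with the covariate and 3 against replicate 3 alone, and the median log2 difference was 3.22 (2.26 with bounds). Il1b, the interleukin-1 beta gene, had log2 levels of -6.10, -5.61 and -4.66 at day 0 and 1.49, 0.60, 2.37, 1.20 and 1.65 at day 12. It rose at least 68.4-fold (log2 difference 6.92 ± 0.81, adjusted p = 3.64e-05, and 0.00242 with the covariate). Cxcl5, an epithelial chemokine that attracts neutrophils through CXCR2, had log2 levels of -7.05, -6.68 and -5.26 at day 0 and 1.59, 1.47, 1.48, 0.28 and 0.83 at day 12. It rose at least 54.5-fold (adjusted p = 3.14e-07, and 3.83e-05 with the covariate). In both genes the day 12 arrays spanned under 2 log2 units and stood over 5 units above the highest day 0 array.

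Cxcl1, a related neutrophil chemokine, had log2 levels of -7.36, -5.84 and -6.12 at day 0 and -2.62, -2.19, -0.49, -1.53 and -0.59 at day 12. Its rise was at least 8.90-fold (adjusted p = 0.000184, and 0.0127 with the covariate). Il11, a cytokine of the IL-6 family made by stromal cells, had log2 levels of -4.94, -4.43 and -6.19 at day 0 and -1.33, -0.15, 2.44, 1.46 and 2.55 at day 12. The day 12 arrays differed among themselves by nearly 4 log2 units, with replicates 1 and 2 at the bottom. The log2 difference of Il11 was 6.18 ± 0.94 (adjusted p = 0.000629, and 0.0287 with the covariate). Ccl8, a monocyte and T cell chemokine, had a log2 difference of 4.36 ± 0.64 (adjusted p = 0.000412, and 0.0144 with the covariate). Il1rl1, the receptor ST2 for interleukin-33, had log2 levels of -4.42, -2.95 and -5.53 at day 0 and 0.46, 1.33, 2.82, 1.85 and 3.21 at day 12 and a log2 difference of 6.23 ± 0.83 (adjusted p = 0.000164, and 0.00696 with the covariate).

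Mast cell protease genes rose as measured and with the covariate. Of 8 measured mast cell genes, 6 were called up, 1 was called down, 5 were called up with the covariate and 3 against day 0 replicate 3 alone, with a median log2 difference of 3.74 (2.16 with bounds). Mcpt4, the chymase of connective-tissue mast cells (probe at chr14:56678589-56678648, mm9), had log2 levels of -2.28, -3.47 and -1.21 at day 0 and 2.01, 2.11, 2.98, 2.32 and 2.38 at day 12. The lowest day 12 array was over 3 log2 units above the highest day 0 array, and the log2 difference was 4.68 ± 0.35 (adjusted p = 2.52e-07, 2.53e-05 with the covariate and 0.000157 against replicate 3 alone). Mcpt1, the mucosal mast cell chymase, had log2 levels of -2.40, -3.94 and -1.52 at day 0 and 1.70, 1.94, 2.75, 2.01 and 2.12 at day 12. The log2 difference of Mcpt1 was 4.73 ± 0.46 (adjusted p = 7.98e-06, and 0.000759 with the covariate). Mcpt2 had a log2 difference of 4.59 ± 0.50 (adjusted p = 1.83e-05), and because the Mcpt genes resemble each other in sequence their probes may share signal. Cpa3, mast cell carboxypeptidase, rose at least 6.90-fold (adjusted p = 0.000429, and 0.0126 with the covariate). The called fall was Kit, the stem cell factor receptor, which interstitial cells of Cajal also carry, with log2 levels of 2.65, 2.51 and 2.43 at day 0 and 1.95, 1.62, 1.39, 1.90 and 1.37 at day 12 and a log2 difference of -0.88 ± 0.23 (adjusted p = 0.0226, and 0.302 with the covariate).

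**Figure D4:**
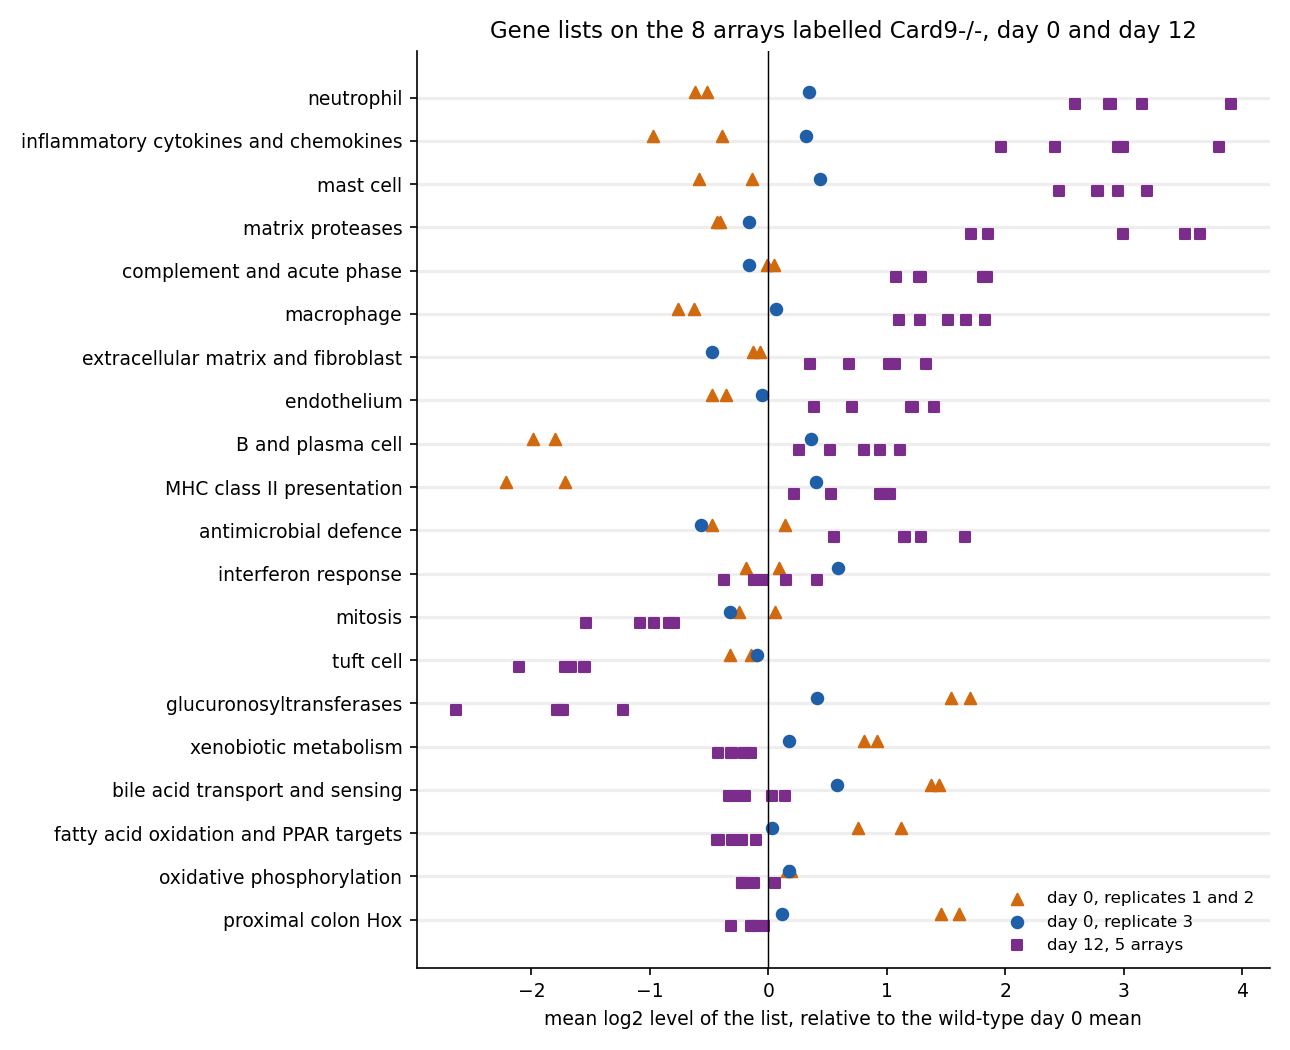
Mean log2 level of each gene list relative to the wild-type day 0 mean (x axis) on the arrays labelled Card9-/-; orange triangles are day 0 replicates 1 and 2, blue circles day 0 replicate 3 and purple squares the 5 day 12 arrays. The neutrophil, cytokine, mast cell, matrix protease and complement lists are higher in each day 12 array than in each day 0 array and the tuft cell list is lower, while in the MHC class II, B cell and proximal Hox lists replicate 3 lies near the day 12 arrays.

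Macrophage genes were called up as measured but not with the covariate. Of 21 measured, 14 were called up, with a median log2 difference of 1.74. With the covariate 0 were called by limma, 15 were higher at an unadjusted p under 0.05, and the median was 1.60. C1qb, a chain of the first complement component made by tissue macrophages, had log2 levels of -1.21, -1.08 and -0.75 at day 0 and 0.36, 0.46, 0.81, 0.55 and 0.81 at day 12. Its log2 difference was 1.61 ± 0.30 (adjusted p = 0.00289) and 1.45 with the covariate (adjusted p = 0.0708). Cd68, a lysosomal marker of macrophages, had a log2 difference of 1.82 ± 0.37 (adjusted p = 0.00506, and 0.0937 with the covariate). Acod1, which makes itaconate in activated macrophages, rose at least 13.5-fold (adjusted p = 0.00565, and 0.183 with the covariate). In 17 of the 21 macrophage genes the day 12 arrays lay above the day 0 arrays without overlap, against 6.88% of all genes.

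Complement and acute-phase genes, which liver and injured epithelium both express, were called up in 12 of 18 members, in 4 with the covariate and in 1 against day 0 replicate 3 alone. Hepatocyte genes moved beside them: array means of that list were -0.48, -0.13 and 0.52 at day 0 and 1.15, 0.38, 0.72, 0.09 and 1.30 at day 12, 10 of 12 genes were higher at day 12, 1 was called up, and 6 were higher at an unadjusted p under 0.05. The part of that signal in the complement genes was not tested. Lrg1, a leucine-rich glycoprotein of the acute phase, had log2 levels of -1.19, -1.48 and -1.51 at day 0 and 2.81, 2.64, 3.28, 2.50 and 2.67 at day 12. The day 12 values spanned under 1 log2 unit, and the log2 difference was 4.17 ± 0.43 (adjusted p = 1.06e-05, 0.000973 with the covariate and 0.00505 against replicate 3 alone). C3, the central complement component, had log2 levels of 3.97, 3.99 and 3.86 at day 0 and 5.85, 5.80, 6.28, 5.55 and 5.79 at day 12. The rise of C3 was a log2 difference of 1.92 ± 0.33 (adjusted p = 0.00169, and 0.0213 with the covariate). C4b, the fourth component, had a log2 difference of 2.37 ± 0.40 (adjusted p = 0.00129, and 0.0339 with the covariate).

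Genes that break down the extracellular matrix were high at day 12. Of 14 proteases and their inhibitors, 9 were called up, 4 with the covariate, and the median log2 difference was 2.42 (2.11 with bounds). Against day 0 replicate 3 alone limma called 0, with 9 higher at an unadjusted p under 0.05 and a median of 2.56. Mmp10, stromelysin-2, had log2 levels of -7.08, -6.73 and -5.82 at day 0 and -1.14, -0.94, 1.83, 0.45 and 1.93 at day 12. Replicates 1 and 2 of day 12 were lower than the other 3 day 12 arrays, and the rise was at least 33.4-fold (adjusted p = 0.000363, and 0.0212 with the covariate). Mmp3, stromelysin-1, had log2 levels of -5.64, -6.55 and -5.13 at day 0 and -1.59, -1.12, 1.13, -0.11 and 1.69 at day 12. It showed the same order among the day 12 arrays and rose at least 24.9-fold (adjusted p = 0.000643, and 0.0294 with the covariate). Plau, the urokinase that activates plasmin, rose at least 4.15-fold (adjusted p = 0.00182, and 0.0491 with the covariate), and Mmp13, collagenase-3, rose at least 18.3-fold (adjusted p = 0.00291, and 0.117 with the covariate).

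Of 29 extracellular matrix and fibroblast genes, 10 were called up and 1 down. With the covariate limma called 0, while 25 were higher at an unadjusted p under 0.05, and the median log2 difference was 1.21 as measured and 1.68 with the covariate. Col1a1, the main chain of type I collagen, had log2 levels of 1.97, 1.58 and 1.75 at day 0 and 2.90, 3.21, 3.59, 3.93 and 4.02 at day 12. Its log2 difference was 1.77 ± 0.42 (adjusted p = 0.0150, and 0.0959 with the covariate). Tgfb1, the transforming growth factor that drives collagen synthesis, had a log2 difference of 1.40 ± 0.31 (adjusted p = 0.00877, and 0.227 with the covariate). Col8a1, a short-chain collagen of vessel walls and smooth muscle, went the other way, with log2 levels of -1.87, -0.31 and -0.63 at day 0 and -2.34, -2.73, -3.15, -3.47 and -3.03 at day 12 and a log2 difference of -2.01 ± 0.51 (adjusted p = 0.0208, and 0.247 with the covariate). In the endothelial list, 5 of 17 genes were called up, among them Selp, the P-selectin on which leukocytes roll (at least 6.75-fold, adjusted p = 0.00417), and Madcam1, the gut address molecule for lymphocytes (log2 difference 2.71 ± 0.54, adjusted p = 0.00473). With the covariate limma called 0 of that list, and 12 were higher at an unadjusted p under 0.05.

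Some growth factor and retinoid genes rose. Of 12 ligands of the EGF receptor family, 4 were called up (1 after normexp background correction), beside 3.69% of all genes, and the list median was 0.18. Nrg1, neuregulin 1, a stromal ligand of ERBB3 in the crypt niche, had log2 levels of -1.32, -1.28 and -1.74 at day 0 and -0.04, 1.02, 2.39, 1.52 and 2.65 at day 12. Replicate 1 of day 12 was the lowest day 12 array, still above the 3 day 0 arrays, and the log2 difference was 2.95 ± 0.60 (adjusted p = 0.00527, and 0.0478 with the covariate). Areg, amphiregulin, had a log2 difference of 1.17 ± 0.34 (adjusted p = 0.0390, and 0.294 with the covariate). Ereg, epiregulin, had log2 levels of -1.04, -0.51 and -2.23 at day 0 and -0.77, 0.27, 3.18, 1.48 and 3.20 at day 12 that overlapped between the days (log2 difference 2.73 ± 0.82, adjusted p = 0.0466). Aldh1a3, which makes retinoic acid, had log2 levels of -2.23, -2.69 and -3.83 at day 0 and 1.05, 1.93, 2.73, 0.51 and 1.84 at day 12. Its groups did not overlap, and its log2 difference was 4.53 ± 0.53 (adjusted p = 3.57e-05, 0.000874 with the covariate and 0.00162 against replicate 3 alone). In the retinoid list as a whole, 4 of 18 genes were called up and 3 down, beside 3.69% and 3.27% of all genes.

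The antimicrobial list held both rises and falls. Of 26 members, 12 were called up and 3 down, and 4 and 3 with the covariate. Among the rises, S100a9, S100a8, Ltf and Lcn2 are also in the neutrophil list. Of these, S100a9, S100a8 and Ltf are among the 4 called up with the covariate. Slpi, a secreted inhibitor of neutrophil elastase, had log2 levels of 0.19, 0.95 and 2.18 at day 0 and 5.41, 6.18, 5.64, 3.70 and 5.25 at day 12. Its log2 difference was 4.13 ± 0.50 (adjusted p = 5.12e-05, and 0.00340 with the covariate), with day 0 replicate 3 the highest day 0 array. Pla2g2a, a secreted phospholipase that attacks bacterial membranes, had a log2 difference of 3.39 ± 0.71 (adjusted p = 0.00638, and 0.209 with the covariate). Duoxa2, the maturation factor of the epithelial oxidase DUOX2, had log2 levels of 2.65, 2.54 and 1.55 at day 0 and 4.45, 3.69, 4.81, 3.35 and 3.87 at day 12 (log2 difference 1.79 ± 0.42, adjusted p = 0.0124, and 0.195 with the covariate). Both genes lay above the day 0 arrays on each day 12 array. Nos2, inducible nitric oxide synthase, had a log2 difference of 2.52 ± 0.60 (adjusted p = 0.0149, and 0.251 with the covariate). The lectins Reg3b and Reg3g, which bind bacterial cell walls and respond to IL-22, did not pass the test. Reg3b had log2 levels of 6.59, 2.90 and -2.89 at day 0 and 5.05, 0.49, 6.15, 5.48 and 5.26 at day 12, so the day 0 arrays spanned over 9 log2 units with replicate 1 the highest of the 8 arrays (log2 difference 2.28 ± 1.58, adjusted p = 0.513). Reg3g had log2 levels of 5.13, 1.79 and -1.98 at day 0 and 3.49, -0.19, 5.03, 4.28 and 3.87 at day 12 and the same order among the day 0 arrays (log2 difference 1.65 ± 1.36, adjusted p = 0.628). Saa3, a serum amyloid A gene of epithelium and macrophages, was not called either (log2 difference 2.44 ± 0.84, adjusted p = 0.0878).

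The 3 called falls of that list were Ang4, Ang and Itln1, and they held in each of the 3 ways of comparing. Ang4 is an angiogenin of Paneth and goblet cells that kills bacteria. Its probe (chr14:52384066-52384125, mm9) had log2 levels of 7.81, 5.82 and 7.10 at day 0 and 1.77, 0.66, 2.18, 2.31 and 1.53 at day 12. Each day 12 array lay over 3 log2 units below the lowest day 0 array, and the fall was 37.3-fold (log2 difference -5.22 ± 0.59, adjusted p = 2.74e-05, 0.00198 with the covariate and 0.00505 against replicate 3 alone). Ang, the founding ribonuclease of the family, had log2 levels of 5.98, 4.11 and 5.10 at day 0 and 1.80, 1.24, 1.56, 1.74 and 1.30 at day 12 (log2 difference -3.54 ± 0.36, adjusted p = 1.01e-05). The probes that the array names Ang2 and Ang3 gave log2 differences of -4.65 ± 0.49 and -5.28 ± 0.60 (adjusted p = 1.40e-05 and 2.88e-05), and since these ribonucleases are near-identical copies, the 4 probes may read each other's transcripts. Itln1, intelectin 1, a goblet cell lectin for microbial sugars, had log2 levels of 5.85, 2.20 and 2.93 at day 0 and 0.41, 0.12, 0.09, -0.56 and -0.16 at day 12. Day 0 replicate 1 was far above the other day 0 arrays and the groups did not overlap (log2 difference -3.68 ± 0.59, adjusted p = 0.000909, and 0.0380 with the covariate). Of 20 goblet cell genes, 2 were called up and 1 down, beside 3.69% and 3.27% of all genes, and the median log2 difference was 0.01.

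Tuft cell transcripts were low at day 12. Tuft cells are rare chemosensory cells of the epithelium that release interleukin-25 and lipid mediators. Of 16 measured genes, 10 were called down, against 3.27% of all genes, and 0 up (0 at an unadjusted p under 0.05 in limma), with a median log2 difference of -1.45 as measured and -1.19 with the covariate, where 3 were called. Against day 0 replicate 3 alone limma called 0, with 10 lower at an unadjusted p under 0.05 and a median of -1.68. Array means of the list were -0.15, -0.33 and -0.10 at day 0 and -1.55, -1.72, -1.56, -1.66 and -2.11 at day 12. Sh2d6, an adaptor of tuft cells, had log2 levels of -0.41, -0.70 and -0.99 at day 0 and -2.24, -2.47, -2.57, -2.41 and -2.78 at day 12. Its log2 difference was -1.79 ± 0.26 (adjusted p = 0.000373, and 0.0213 with the covariate). Bmx, a TEC-family kinase, had log2 levels of 0.07, -0.37 and -0.16 at day 0 and -1.15, -1.25, -1.30, -1.31 and -1.37 at day 12. The 5 day 12 values lay close together and below the day 0 arrays, and the log2 difference was -1.12 ± 0.17 (adjusted p = 0.000531, and 0.0285 with the covariate). Avil, the actin-bundling protein advillin, had a log2 difference of -1.33 ± 0.21 (adjusted p = 0.000889, and 0.0466 with the covariate), and Gfi1b, a transcription factor of the tuft lineage, one of -2.53 ± 0.46 (adjusted p = 0.00243, and 0.0729 with the covariate). Siglecf, a sialic acid receptor of eosinophils that tuft cells also carry, had log2 levels of 0.13, -0.14 and -0.65 at day 0 and -2.65, -2.90, -3.03, -2.60 and -3.47 at day 12 and a log2 difference of -2.71 ± 0.36 (adjusted p = 0.000162, and 0.00250 with the covariate). The cell type behind the Siglecf signal was not tested.

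Further falls that held with the covariate came from several functions. Nrn1, neuritin, a small membrane-anchored protein known from neurons, had log2 levels of 0.08, -0.02 and -0.14 at day 0 and -2.72, -2.89, -2.75, -3.88 and -2.81 at day 12. The 3 day 0 arrays lay close together, and the log2 difference was -2.98 ± 0.33 (adjusted p = 2.09e-05, and 0.00172 with the covariate). Pcdh17, a protocadherin, had a log2 difference of -3.09 ± 0.42 (adjusted p = 0.000180, and 0.00482 with the covariate). Slc13a1, a sulphate transporter of the apical membrane, had log2 levels of 1.63, 1.22 and -0.11 at day 0 and -3.03, -3.97, -2.48, -1.74 and -3.80 at day 12, with day 0 replicate 3 the lowest of day 0 (log2 difference -3.92 ± 0.64, adjusted p = 0.00102, and 0.0409 with the covariate). Traf1, an adaptor below TNF receptors that NF-kappaB induces, had log2 levels of 2.33, 2.14 and 1.39 at day 0 and 0.43, 0.40, 0.26, 0.23 and 0.17 at day 12 (log2 difference -1.66 ± 0.23, adjusted p = 0.000344, and 0.0200 with the covariate). In the TNF and NF-kappaB feedback list that holds it, 3 of 15 genes were called up and Traf1 was the 1 called down, beside 3.69% and 3.27% of all genes. Trim38 was not well above background on any of the 5 day 12 arrays and fell at least 5.75-fold (adjusted p = 0.000601). Tmem35a had a log2 difference of -3.05 ± 0.47 (adjusted p = 0.000660), and Bex4 one of -2.13 ± 0.43 (adjusted p = 0.00505). Ephx1, microsomal epoxide hydrolase, had a smaller fall with little spread, with log2 levels of 3.42, 3.59 and 3.69 at day 0 and 2.66, 2.93, 2.69, 2.64 and 2.62 at day 12 and a log2 difference of -0.86 ± 0.11 (adjusted p = 0.000162, and 0.00443 with the covariate).

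The largest called fall by size was in Ugt2b5, an enzyme of absorptive cells, and many metabolic genes were at their highest in day 0 replicates 1 and 2. Of 9 genes in the list of glucuronosyltransferases, which conjugate drugs, bilirubin and steroids, 8 were called down as measured. Among the 8 was Ugdh, a dehydrogenase and not itself a transferase. With the covariate limma called 0, 5 were lower at an unadjusted p under 0.05, and the median log2 difference was -1.38. Ugt2b5 had log2 levels of 2.60, 2.43 and 0.26 at day 0 and -4.91, -6.47, -4.22, -2.71 and -4.05 at day 12. Day 0 replicates 1 and 2 stood over 2 log2 units above replicate 3, which in turn stood above the day 12 arrays, and the log2 difference of -6.24 ± 1.25 (adjusted p = 0.00506) became -3.10 with the covariate (adjusted p = 0.149). Ugt2b36, a close paralogue whose probe may read shared transcripts, had a log2 difference of -5.06 ± 0.97 (adjusted p = 0.00367). Slc51a, the alpha subunit of the basolateral bile acid transporter, had log2 levels of 6.17, 5.40 and 0.13 at day 0 and -2.60, -4.02, -0.55, -0.81 and -1.29 at day 12. Replicate 3 of day 0 lay within 1 log2 unit of a day 12 array, and the log2 difference went from -5.75 ± 1.55 (adjusted p = 0.0280) to -1.76 with the covariate (adjusted p = 0.569). Fabp1, the liver-type fatty acid binding protein, had a log2 difference of -4.18 ± 1.03 (adjusted p = 0.0174) and -1.77 with the covariate, and Cyp4b1 one of -4.60 ± 1.25 (adjusted p = 0.0295) and -1.21.

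Of 41 xenobiotic metabolism genes, 12 were called down and 0 up (1 at an unadjusted p under 0.05 in limma), and 1 (Ephx1) was called down with the covariate. Bile acid transport and sensing had 5 of 12 genes called down, and 0 by limma with the covariate, where 3 were lower at an unadjusted p under 0.05. Slc51b, the partner subunit of Slc51a, was among them as measured (log2 difference -1.57 ± 0.28, adjusted p = 0.00240, and 0.103 with the covariate). Fatty acid oxidation and PPAR targets had 8 of 28 called down, and limma called 0 with the covariate (5 at an unadjusted p under 0.05) and 0 against replicate 3 alone (2 at an unadjusted p). The median log2 difference of the list was -0.58 as measured and -0.29 with the covariate. Array means of that list were 1.12, 0.76 and 0.03 at day 0 and -0.30, -0.43, -0.22, -0.42 and -0.10 at day 12, so day 0 replicate 3 lay closer to the day 12 arrays than replicates 1 and 2 did. Of 28 oxidative phosphorylation genes, 8 were called down, the 28 had log2 differences below 0, and the median was -0.30 as measured and -0.34 with the covariate. With the covariate limma called 0 of them (18 lower at an unadjusted p under 0.05), and against replicate 3 alone 0 (7 at an unadjusted p). Ndufa4, a subunit of the respiratory chain, had log2 levels of 5.22, 5.09 and 5.08 at day 0 and 4.61, 4.14, 4.56, 4.40 and 4.44 at day 12, with replicate 3 in the day 0 range (log2 difference -0.70 ± 0.14, adjusted p = 0.00556, and 0.165 with the covariate).

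Antigen presentation and B cell genes were low on day 0 replicates 1 and 2 and not on replicate 3. Of 11 MHC class II genes, limma called 8 up as measured, 0 with the covariate (4 at an unadjusted p under 0.05) and 0 against replicate 3 alone (0 at an unadjusted p under 0.05), and array means of the list were -2.22, -1.72 and 0.41 at day 0 and 0.22, 0.98, 1.03, 0.94 and 0.53 at day 12. H2-Ab1, a class II beta chain, had log2 levels of 2.68, 3.36 and 4.98 at day 0 and 5.49, 5.56, 5.50, 5.72 and 5.32 at day 12 (log2 difference 1.85 ± 0.36, adjusted p = 0.00447), and against replicate 3 alone the log2 difference was 0.54 (adjusted p = 0.822). Of 17 B and plasma cell genes, limma called 6 up as measured and 0 with the covariate (2 at an unadjusted p under 0.05). Ms4a1, the B cell antigen CD20, had log2 levels of -5.13, -5.59 and -0.05 at day 0 and 0.03, 1.59, 1.71, 1.43 and 0.91 at day 12. Its log2 difference of 4.73 ± 1.14 (adjusted p = 0.0156) was 1.19 against replicate 3 alone (adjusted p = 0.952). Cd74, the class II invariant chain, had a log2 difference of 1.91 ± 0.46 (adjusted p = 0.0149). The part of position and of lymphoid follicles in these values was not tested. Among 18 T cell genes, 5 were called up, beside 3.69% of all genes, and 1 with the covariate. The gene called with the covariate was Icos, the inducible co-stimulator (log2 levels -6.78, -4.80 and -4.78 at day 0 and -2.28, -2.70, -1.91, -1.67 and -1.74 at day 12, a rise of at least 5.97-fold, adjusted p = 0.000660, and 0.0344 with the covariate).

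The C-type lectin receptors that feed into CARD9 rose, while Syk, Bcl10 and Malt1, which carry the signal onward, were not called. Of 13 genes of the pathway, 5 were called up, beside 3.69% of all genes, and 1, Clec4d, with the covariate. Clec4e, the receptor Mincle, rose at least 8.44-fold (adjusted p = 0.00324, and 0.125 with the covariate). Clec7a, the beta-glucan receptor Dectin-1, had log2 levels of -3.07, -2.65 and -2.22 at day 0 and -0.24, -0.02, 0.13, -0.06 and 0.16 at day 12. The log2 difference of Clec7a was 2.64 ± 0.47 (adjusted p = 0.00231, and 0.0788 with the covariate), and that of Clec4n, Dectin-2, was 2.76 ± 0.47 (adjusted p = 0.00164). The fifth called gene was Card14, an epithelial relative of Card9. The lectin receptors sit on neutrophils and macrophages, whose lists rose in the same arrays. Clec4d and Clec4e are also members of the neutrophil list, so the rise of that list is in part the same measurement. The part of cell number was not tested.

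Genes around IL-22, AhR and tryptophan, the field of the study's title, were called in part, beside 3.69% of all genes called up and 3.27% called down. Of 9 genes around IL-22 and IL-17, 3 were called up and 1 with the covariate, Socs3, the feedback inhibitor that STAT3 induces, with log2 levels of 0.94, 1.03 and 0.37 at day 0 and 3.44, 3.52, 4.65, 2.82 and 3.59 at day 12 (log2 difference 2.82 ± 0.45, adjusted p = 0.000909, and 0.0400 with the covariate). Stat3 itself had a log2 difference of 0.68 ± 0.18 (adjusted p = 0.0251, and 0.367 with the covariate). Ccr6, the chemokine receptor of B cells and IL-17 cells, had log2 levels of -4.91, -5.05 and -1.07 at day 0 and -0.59, 0.61, 0.72, 0.49 and -0.03 at day 12, where replicate 3 of day 0 again lay near day 12 (log2 difference 3.92 ± 0.89, adjusted p = 0.0107, and 0.882 against replicate 3 alone). Il22 was well above background on 1 of the 8 arrays, day 12 replicate 3, and Il17a on 3 day 12 arrays and no day 0 array (at least 1.11-fold higher, adjusted p = 0.219). Of 8 genes in the AhR list, which holds Ahr beside its targets, limma called 0 up (1 at an unadjusted p under 0.05) and 1 down, Ugt1a6b (log2 difference -1.08 ± 0.30, adjusted p = 0.0354, and 0.599 with the covariate). Cyp1a1, the classic AhR target, had log2 levels of -4.09, -4.72 and -6.20 at day 0 and -6.04, -5.30, -6.26, -5.13 and -3.91 at day 12, but was well above background on 1 of the 3 day 0 and 1 of the 5 day 12 arrays, so a change in it was not measurable here. Ahr itself had a log2 difference of 0.10 ± 0.17 (adjusted p = 0.880). The median log2 difference of the AhR list was 0.01. Of 12 tryptophan metabolism genes, Kmo, kynurenine monooxygenase, was called up (log2 levels -4.46, -4.27 and -3.54 at day 0 and -1.93, -2.04, -1.90, -1.66 and -2.04 at day 12, log2 difference 2.18 ± 0.35, adjusted p = 0.000984, and 0.0502 with the covariate) and Maoa, monoamine oxidase A, down (log2 difference -1.02 ± 0.18, adjusted p = 0.00178, and 0.0708 with the covariate).

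Of 24 mitosis and 24 DNA replication genes, limma called 0, with 14 and 4 lower at an unadjusted p under 0.05, and 1 mitosis gene was called down after normexp background correction. The 24 measured mitosis genes had log2 differences below 0, with a median of -0.87 as measured and -0.89 with the covariate, and in 22 of them the day 12 arrays lay below the day 0 arrays without overlap, against 9.73% of all genes. Nusap1, a spindle protein, had log2 levels of 0.89, 1.25 and 0.84 at day 0 and 0.03, -0.04, -0.15, 0.10 and -0.70 at day 12 (log2 difference -1.15 ± 0.36, adjusted p = 0.0585). Ccnb2, cyclin B2, had log2 levels of 3.66, 3.84 and 3.47 at day 0 and 3.06, 2.56, 2.50, 2.56 and 2.02 at day 12 (log2 difference -1.12 ± 0.38, adjusted p = 0.0813). Array means of the list spread more widely at day 7, at 0.37, -0.20, -2.25 and -0.88.

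Of the other lists, keratins and the cornified envelope had 1 of 26 genes called up, close to the share of 3.69% over all genes. It was Sprr2h, a small proline-rich protein of squamous and injured epithelium. It had log2 levels of -6.98, -5.29 and -5.92 at day 0 and -0.81, -0.70, 0.32, -2.39 and -1.42 at day 12, with no overlap and no day 0 array well above background (a rise of at least 12.4-fold, adjusted p = 2.26e-05, 0.00185 with the covariate and 0.00830 against replicate 3 alone). Scnn1b, the beta subunit of the epithelial sodium channel, had log2 levels of -1.25, -0.92 and -1.50 at day 0 and -0.45, 0.17, 0.20, 0.65 and 0.19 at day 12 (log2 difference 1.37 ± 0.30, adjusted p = 0.00843, and 0.0271 with the covariate). The lactate exporter gene Slc16a3 rose (log2 difference 1.96 ± 0.30, adjusted p = 0.000660, and 0.0213 with the covariate), and its relative Slc16a9, a carnitine exporter, fell (log2 difference -2.09 ± 0.38, adjusted p = 0.00243, and 0.104 with the covariate). Among crypt genes, Ly6a, a marker of injured epithelium and of blood vessels, rose (log2 difference 2.13 ± 0.37, adjusted p = 0.00178, and 0.0809 with the covariate), and Axin2, a Wnt target, fell (log2 difference -1.61 ± 0.39, adjusted p = 0.0165, and 0.212 with the covariate). Clu, clusterin, a gene of regenerating stem cells, had log2 levels of 1.85, 2.16 and 3.90 at day 0 and 5.07, 5.05, 4.85, 4.63 and 4.39 at day 12 (log2 difference 2.16 ± 0.58, adjusted p = 0.0272, and 0.453 with the covariate).

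Of the 15 measured genes in the list of Toll-like receptors and Cd14, 2 were called up and 2 down, beside 3.69% and 3.27% of all genes. Cd14, the lipopolysaccharide co-receptor, rose (log2 difference 1.26 ± 0.31, adjusted p = 0.0182, and 0.422 with the covariate), as did Tirap, an adaptor of Toll-like receptors, with log2 levels of 0.94, 0.99 and 0.98 at day 0 and 1.48, 1.46, 1.88, 1.47 and 1.45 at day 12 (log2 difference 0.58 ± 0.10, adjusted p = 0.00178, and 0.0287 with the covariate). The falls were Tlr5, the flagellin receptor, well above background on 2 of the 3 day 0 arrays and no day 12 array (a fall of at least 1.94-fold, adjusted p = 0.0434, and 0.635 with the covariate), and Tlr13, a receptor for bacterial ribosomal RNA (log2 difference -0.69 ± 0.19, adjusted p = 0.0312, and 0.524 with the covariate). The eosinophil and type 2 list had 6 of 15 genes called up and 1 down, beside the same shares of all genes. Among the rises were Il13ra2, the decoy receptor of interleukin-13 (log2 difference 2.26 ± 0.44, adjusted p = 0.00411, and 0.147 with the covariate), and Gata3, the transcription factor of type 2 lymphocytes (log2 difference 2.36 ± 0.54, adjusted p = 0.0106, and 0.171 with the covariate). Sirpb1b, a signal-regulatory receptor of myeloid cells, had log2 levels of -7.28, -6.91 and -6.25 at day 0 and -1.55, -1.96, -1.20, -1.59 and -1.06 at day 12 and was higher without overlap, with no day 0 array well above background (a rise of at least 8.97-fold, adjusted p = 3.57e-05, 0.00242 with the covariate and 0.0320 against replicate 3 alone). Khdc1a had log2 levels of -7.25, -6.88 and -5.67 at day 0 and 1.05, 1.38, -0.40, 0.35 and 0.82 at day 12 and no day 0 array well above background (a rise of at least 38.8-fold, adjusted p = 0.000100, and 0.00407 with the covariate). In the endoplasmic reticulum stress list, 1 of 22 genes was called up, close to the share of 3.69% over all genes. It was Manf, a secreted protein of stressed cells (log2 difference 0.50 ± 0.15, adjusted p = 0.0464, and 0.396 with the covariate).

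Day 7 values, at the end of DSS, stand beside these. They share the day 0 arrays with the comparison above, so levels are given and no overlap of calls. S100a9 had a mean log2 level of 6.38 at day 7 and 3.99 at day 12 (log2 difference between days 12 and 7 of -2.39, adjusted p = 0.0528). Ltf fell from a mean log2 level of 0.38 to -2.26 (adjusted p = 0.00482), and Lrg1 from 4.54 to 2.78 (adjusted p = 0.0111). The mast cell proteases went the other way. Mcpt4 had log2 levels of 0.86, 0.99, 0.47 and 1.51 at day 7, each below the day 12 arrays, and was higher at day 12 by 1.40 (adjusted p = 0.0127), and Mcpt1 was higher by 1.56 (adjusted p = 0.0287). Ang4 was already low at day 7, with log2 levels of 2.36, 1.61, 1.44 and 3.32 (log2 difference between days 12 and 7 of -0.49, adjusted p = 0.670). Sh2d6 had log2 levels of -2.21, -2.25, -1.57 and -2.21 at day 7 (log2 difference between days 12 and 7 of -0.43, adjusted p = 0.291). Between day 7 and day 12, 1359 genes were called up (5.34%) and 502 down (1.97%), and pancreatic acinar genes were high on 2 of the 4 day 7 arrays.

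Wild-type mice of the same course give a separate set of 3 day 0 and 5 day 12 arrays, in which 291 genes were called up (1.14%) and 152 down (0.597%). The position marker Hoxb8 had log2 levels of -3.61, -3.37 and -4.89 at day 0 and -4.30, -3.45, -4.75, -0.63 and -3.69 at day 12 in wild type, so 1 day 12 array stood above the rest there. The wild-type log2 difference was 7.43 ± 0.80 for S100a9 (adjusted p = 2.28e-05), 3.56 ± 0.35 for Mcpt4 (adjusted p = 8.32e-06) and -5.01 ± 0.59 for Ang4 (adjusted p = 4.74e-05). Neither these counts nor these values show that the genotypes differ. The test of the difference, the change labelled Card9-/- minus the wild-type change, gave adjusted p = 0.649 for S100a9, 0.690 for Mcpt4 and 0.990 for Ang4. In that test 1 gene of 25450 was called, Ifit1, with a negative difference (0.00393% of genes), and 1747 genes had an unadjusted p under 0.05.

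Ifit1 is an interferon-induced protein that binds foreign RNA lacking the cap of host messages. Its log2 levels were 0.17, 0.38 and 0.22 at day 0 and -0.89, -1.41, -1.40, -0.56 and -0.81 at day 12 in arrays labelled Card9-/-. In wild type they were -0.54, -0.30 and -1.04 at day 0 and 0.59, 0.66, 1.06, 1.33 and 0.37 at day 12. The gene thus fell in one genotype (-1.27 ± 0.27, adjusted p = 0.00678) and rose in the other (1.43 ± 0.27, adjusted p = 0.00701), with no overlap between the days in either, and the difference of the changes was -2.70 ± 0.38 (adjusted p = 0.0141). The 3 day 0 arrays labelled Card9-/- lay close together, so replicates 1 and 2 did not stand apart for this gene. With slide as a term or with the covariate, and without day 0 replicate 1, day 0 replicate 2 or wild-type day 0 replicate 1, limma called 0 genes, and without day 0 replicate 3 it called 54.

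The genes next in rank by that test were named after their values were seen, and none was called. Oasl1, a member of the oligoadenylate synthetase family, had log2 levels of 3.98, 4.33 and 3.99 at day 0 and 3.61, 3.53, 3.53, 3.60 and 3.88 at day 12 in arrays labelled Card9-/-, against 3.80, 3.67 and 3.62 at day 0 and 4.40, 4.43, 4.42, 4.94 and 4.33 at day 12 in wild type (difference of changes -1.27 ± 0.21, adjusted p = 0.0670). Apol9a, an interferon-responsive apolipoprotein L gene, had log2 levels of 2.31, 3.11 and 2.92 at day 0 and 2.08, 0.85, 0.76, 1.85 and 1.50 at day 12, against 1.95, 1.85 and 2.07 and 3.10, 2.30, 3.34, 3.41 and 2.96 in wild type (difference of changes -2.44 ± 0.41, adjusted p = 0.0670). Oas3 and Mx2, both antiviral effectors, had differences of changes of -2.51 ± 0.46 and -2.49 ± 0.47 (adjusted p = 0.118 for each). In Mx2 and Oas3 each wild-type day 12 array was above each wild-type day 0 array.

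Over the list of 33 interferon response genes, the median log2 difference was -0.24 in arrays labelled Card9-/- and 1.10 in wild type, and the difference of changes was below 0 in 31 of the 33, against 14731 of 25450 genes. As measured, 3 of the list were called down in arrays labelled Card9-/-, Ifit1, Ddx58 (RIG-I, a sensor of viral RNA; log2 difference -0.62 ± 0.14, adjusted p = 0.00867) and Irf7, the transcription factor that amplifies interferon (log2 difference -0.87 ± 0.21, adjusted p = 0.0168). With the covariate limma called 0, and 10 were lower at an unadjusted p under 0.05. Rsad2, viperin, another antiviral effector, had log2 levels of -1.14, -0.48 and -0.27 at day 0 and -1.02, -1.49, -1.51, -1.64 and -1.81 at day 12 (log2 difference -0.86 ± 0.31, adjusted p = 0.105). Array means of the list were -0.19, 0.09 and 0.58 at day 0 and 0.41, -0.12, -0.38, 0.15 and -0.04 at day 12, so the days overlapped as a whole, while wild-type day 12 arrays read 0.70, 0.94, 1.10, 1.25 and 0.98. Ido1, which starts the kynurenine pathway and is induced by interferon gamma, had log2 levels of -2.33, -1.39 and -0.96 at day 0 and -1.23, -1.84, -2.82, -1.06 and -2.67 at day 12 in arrays labelled Card9-/- (log2 difference -0.36 ± 0.80, adjusted p = 0.925). In wild type it read -3.01, -6.17 and -3.06 at day 0 and -1.03, 0.83, 0.20, 1.26 and 1.22 at day 12 (log2 difference 4.58 ± 0.80, adjusted p = 0.00375), and the difference of changes was -4.94 ± 1.13 (adjusted p = 0.427).

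**Figure D5:**
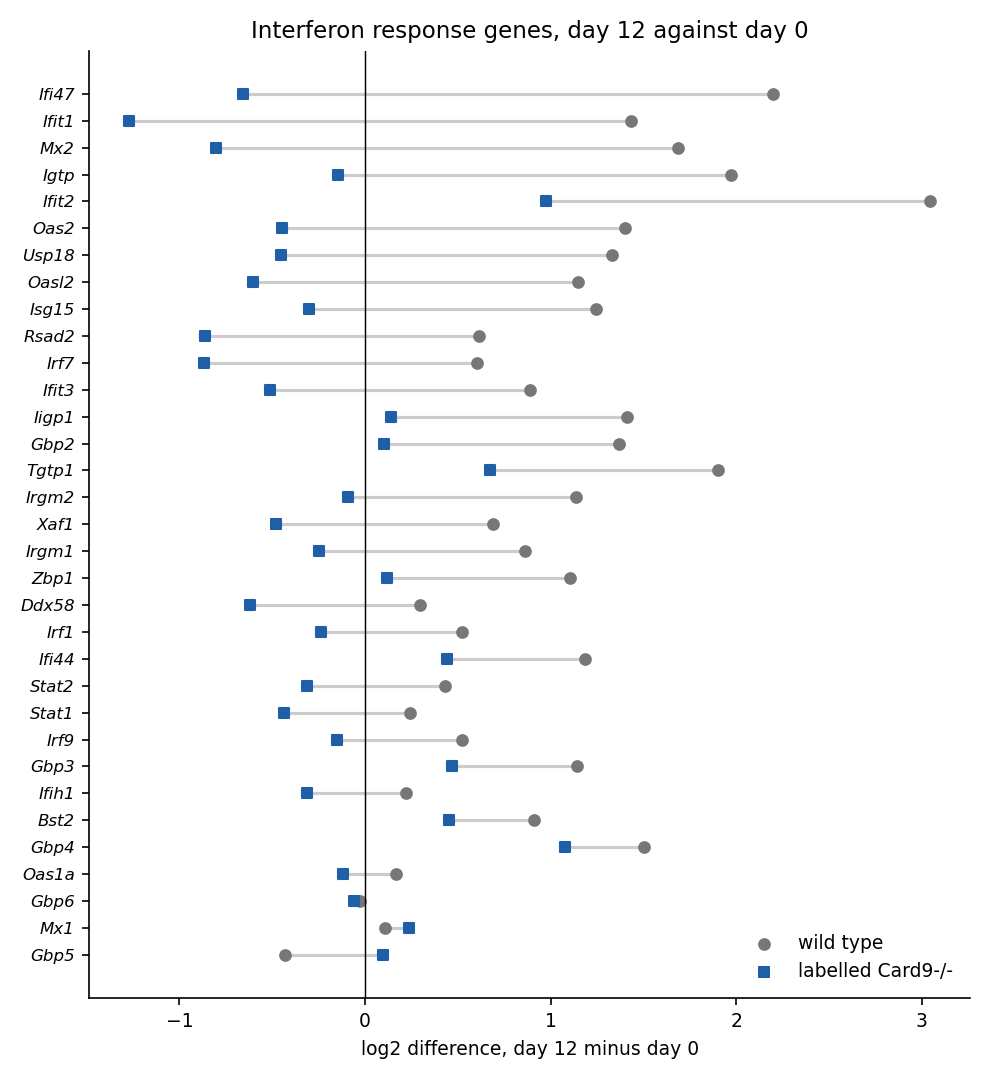
Log2 difference between day 12 and day 0 (x axis) of the 33 measured interferon response genes, ordered by the difference between genotypes; grey circles are wild type, blue squares the arrays labelled Card9-/- and lines join the 2 values of a gene. The blue square lies to the left of the grey circle in 31 genes, and Ifit1 is the gene for which the difference was called.

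The promoters of Ifit1, Apol9a, Oas3 and Oasl1 are shown because Ifit1 was the gene called between genotypes and Oasl1, Apol9a and Oas3 held ranks 2, 3 and 5; the list of 33 interferon genes holds 4 of the first 10 ranks (Ifit1, Mx2, Irf7 and Ddx58). Each run is the 250 bases before the start of the gene's transcript, from RefSeq on GRCm38.p6, 5′ to 3′ on the gene's strand, and capitals mark the letters GAAANNGAA, within the core of the interferon-stimulated response element, or their reverse complement TTCNNTTTC. Ifit1 lies at chr19:34640639-34640888 (plus strand), Apol9a at chr15:77411081-77411330 (minus strand), Oas3 at chr5:120777660-120777909 (minus strand) and Oasl1 at chr5:114922990-114923239 (plus strand).
Ifit1: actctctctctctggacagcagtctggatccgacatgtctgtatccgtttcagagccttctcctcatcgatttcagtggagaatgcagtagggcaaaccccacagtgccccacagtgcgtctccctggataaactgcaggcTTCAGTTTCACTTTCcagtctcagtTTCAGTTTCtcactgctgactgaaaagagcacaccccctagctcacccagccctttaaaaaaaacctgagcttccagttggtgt
Apol9a: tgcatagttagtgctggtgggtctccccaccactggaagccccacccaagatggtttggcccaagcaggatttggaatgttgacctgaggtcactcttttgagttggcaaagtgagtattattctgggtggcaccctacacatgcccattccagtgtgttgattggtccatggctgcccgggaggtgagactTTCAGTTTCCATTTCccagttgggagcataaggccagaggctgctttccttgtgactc
Oas3: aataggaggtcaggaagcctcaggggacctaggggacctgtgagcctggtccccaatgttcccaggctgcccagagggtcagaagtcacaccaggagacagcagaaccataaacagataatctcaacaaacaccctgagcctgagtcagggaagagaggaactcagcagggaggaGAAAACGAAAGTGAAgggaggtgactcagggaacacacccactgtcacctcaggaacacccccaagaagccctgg
Oasl1: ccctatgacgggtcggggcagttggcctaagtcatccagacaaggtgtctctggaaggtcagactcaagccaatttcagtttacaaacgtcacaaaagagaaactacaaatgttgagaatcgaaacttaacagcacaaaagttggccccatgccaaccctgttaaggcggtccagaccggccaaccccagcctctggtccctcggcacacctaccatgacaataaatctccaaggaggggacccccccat
Ifit1 held 3 matches, of which the first 2 overlap and begin 109 and 103 bases before the start. Apol9a held 2 overlapping matches, which begin 58 and 52 bases before the start, and Oas3 held 2, which begin 75 and 69 bases before it and overlap. Oasl1 held none, which says only that these letters are not in this window. Of the 10 genes ranked first in the test between genotypes, 9 had a listed promoter and 5 of them a match (Ifit1, Apol9a, Apol9b, Oas3 and Lgals9), and Apol9a and Apol9b are near-identical copies. Over all 32851 promoter windows of the same length, 7.13% held a match on either strand. That share counts single windows, whereas a gene counted as matched if any of its listed promoters held a match. Apol9a has 2 listed promoters, of which the first is shown.

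The promoter of Cxcl1, a chemokine gene that rose as measured and with the covariate, is set beside them as an example from the inflammatory list. The window is chr5:90890995-90891244 (GRCm38.p6, plus strand), and capitals mark GGGNNTTTC, within a form of the NF-kappaB binding motif, or its reverse complement GAAANNCCC.
Cxcl1: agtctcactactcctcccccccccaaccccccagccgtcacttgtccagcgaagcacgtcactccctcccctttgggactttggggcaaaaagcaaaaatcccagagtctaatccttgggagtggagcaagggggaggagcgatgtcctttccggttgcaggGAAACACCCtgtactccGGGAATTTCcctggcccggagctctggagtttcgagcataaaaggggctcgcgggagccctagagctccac
It held 2 matches, which begin 88 and 71 bases before the start, and 3.72% of the 32851 windows held one. These matches describe the letters of the window and were not tested for binding.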

How the data were processed

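Each array is a one-colour Agilent scanner file, extracted with Agilent Feature Extraction 10.7.3.1 per the submitters' processing notes. The deposited intensity of a spot is its background-corrected processed signal, per the file headers. The authors also deposited a log2 value table of 33418 probes, used as an alternative; no source used here gives its centring. From the intensities, log2 signal minus the 75th percentile over non-control spots was computed, repeat spots were averaged and flagged outliers left out. Probes well above background on 3 or more of 25 arrays were kept, the brightest probe stood for a gene, and 25450 genes were fitted in limma 3.58.1 (R 4.3.3; lmFit, eBayes) with 6 group means, 2-sided, with Benjamini-Hochberg adjustment over all genes. The covariate is the mean of 8 proximal colon Hox genes. The fit was tested on simulated data. Members, gene lists and tests were chosen with earlier results of these data known. Named genes are Card9; the 12 largest called rises and falls without overlap, with and without the covariate; the 4 members of each list with the smallest p; the proximal Hox genes; members of the IL-22, AhR, tryptophan and antimicrobial lists; and genes called between genotypes. Of 55681 probes, 27656 were named through a RefSeq accession and 3708 through a symbol, and 24317 kept the file's name. Alternatives are in the closing section. Array number, 3 against 5, limits the precision.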

Additional observations from a re-analysis of the deposited data

Results flagged for a closer look

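In 120 groups of 5 day 12 arrays, 1 for each named gene, the gap between the outermost array and the next was compared with the whole range, and a share above 0.71 set an array apart. Chance flags about 1 in 20 groups, and 9 were set apart here. In S100a8, replicate 3 had a log2 level of 3.46 against 1.58 to 2.10 in the other 4 arrays. In Il22, replicate 3 had -2.94 against -5.38 to -4.85, and it was the array with the one Il22 signal well above background. In the adaptor gene Tirap, replicate 3 had 1.88 against 1.45 to 1.48. In the antibacterial lectin gene Reg3b, replicate 2 had 0.49 against 5.05 to 6.15. In the distal marker Hoxd13, replicate 2 had -0.033 against -4.34 to -3.21. In Ephx1, replicate 2 had 2.93 against 2.62 to 2.69. In Cyp4b1, replicate 1 had -3.66 against -2.63 to -2.39. In Nrn1, replicate 4 had -3.88 against -2.89 to -2.72. In Oasl1, replicate 5 had 3.88 against 3.53 to 3.61. The change of Ifit1 from day 0 to day 12 differed between genotypes by -2.70 on the log2 scale in limma's test of that difference.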

How the results depend on the processing

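The counts of 939 rises and 833 falls moved most with the proximal Hox covariate and with the day 0 arrays left out. Over the genes called as measured, the median log2 difference was 1.60 for rises and -0.89 for falls. It was 1.26 and -0.65 with the covariate, and 1.08 and -0.71 against day 0 replicate 3 alone. The part of lower precision in these counts, with fewer arrays or an added term, was not tested. The proximal Hox covariate gave 131 and 58, leaving out day 0 replicates 1 and 2 gave 50 and 54, and a covariate of 7 Hox genes, chosen after seeing the data, gave 264 and 124. Slide as a block gave 479 falls. Leaving out 1 array at a time gave 298 to 995 rises and 178 to 963 falls, lowest without day 0 replicate 2 for both. The single gene called between genotypes became 2 with normexp background, 3 with a filter of 13 arrays, 2 with only the groups of the contrast, 13 without day 0 replicates 1 and 2, 4 with the 7-gene covariate, and 0 to 54 with 1 array left out, the 54 without day 0 replicate 3. It became 0 in limma with slide as a block, with the Hox covariate and without the 4 arrays high in pancreatic acinar genes, where 1341, 1190 and 1966 genes had an unadjusted p under 0.05. Those 4 arrays were day 7 replicates 2 and 3, day 12 replicate 1 and wild-type day 12 replicate 5. The count between genotypes was also 0 without day 0 replicate 1 or 2 or wild-type day 0 replicate 1, with 1304, 1076 and 1580 at an unadjusted p. Other counts of rises and falls stayed within 1.5 times: 677 and 661 with normexp, 875 and 675 with quantile normalization, 886 and 857 in the authors' value table, and 748 and 558 with no filter. Of 120 named genes, 53 lost their call with the covariate. The 120 include genes that were not called as measured, such as Reg3b and Il22, and these had no call to lose. Without day 0 replicates 1 and 2, the log2 difference of Hoxb13 reversed to -0.21. The cause of these moves was not tested. Whether the replicate numbers pair arrays of the 2 days cannot be settled from 3 shared numbers. Deviations of same-numbered arrays correlated at -0.10, -0.13 and 0.25. A replicate block gave 903 rises, 760 falls and 1 gene between genotypes. With 3 day 0 arrays, genes near background have only a bound on their fold.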
